A study of Homo sapiens with 10 samples.

Results

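The m6A peaks described here lie in the distal parts of chromosome arms, between 1 and 5 Mb from a chromosome end. Members were chosen by position alone, from the peak lists of 5 colon cancer cell lines on 18 chromosomes, those from 1 to 22 without 13, 18, 19 and 20. A peak belonged if its summit stood 1 to 5 Mb from the start of its chromosome or from the highest peak end that any list holds there. This gave 4975 of the 38106 deposited peaks, with 1510 in HT29, 1401 in COLO205, 1131 in HCT116, 703 in COLO320DM and 230 in HCT15. Of the 36 chromosome ends, 32 held peaks. The 4 empty ones were the short arms of chromosomes 14, 15, 21 and 22, whose assembled sequence starts farther in. The nearest peak outside the 1 Mb bound was 0.998 Mb from its end with a fold of 6.05, and the nearest inside was 1.001 Mb from its end with a fold of 7.56, both in HCT116. At the 5 Mb bound the nearest peak inside, in COLO320DM, had a fold of 4.57 and the nearest outside, in HCT116, had 4.21.

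N6-methyladenosine (m6A) is a methyl mark that the METTL3-METTL14 complex places on RNA while it is being made, and reader proteins that bind the mark alter the splicing, decay and translation of the transcript. In mRNA it is best known near stop codons and in long internal exons. The distal parts of human chromosomes are rich in genes, in G and C bases and in minisatellites, which are arrays of short repeated units.

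RNA was fragmented and pulled down with an antibody against m6A, and each line has 1 such immunoprecipitation (IP) and 1 input, the fragmented RNA kept back before pulldown, so the series holds 10 samples. The labels name no treatment. HCT116, HT29 and HCT15 are labelled as colorectum, COLO320DM and COLO205 as colon. As background, HCT116 and HCT15 are deficient in mismatch repair, HT29 and COLO205 carry an activating BRAF mutation, and COLO320DM has neuroendocrine features and extra copies of MYC. With 1 IP library per line there is no replicate spread, no test between lines was possible, and every difference below compares libraries. No annotation or genome of the build used by the files (hg19) was at hand, so no peak was assigned to a gene and the lines' identity could not be checked against marker genes. Genes named below are background on an arm.

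Each deposited peak has a fold, the summit's signal over its local background, and a −log10 p. From these the reads behind the peak and its local background were recovered, the latter in input fragments. A peak is called input-covered when that background amounts to at least 1 fragment of the line's input, and input-poor below that. Where the background was below 1 fragment and off the genome-wide mean, 100% of values lay on steps of a 10 kb average. Input-covered thus need not mean input fragments at the summit itself. The recovered IP depth was between 1380000 and 2987000 reads in the 4 long lists, and that of their inputs between 2241000 and 5410000. In HCT15 the IP held 5015000 reads and the input 1613000 reads, and each IP read counted as 0.3215 in the caller's fold. HCT15 is thus the one list whose IP was deeper than its control, which bears on every HCT15 value. Shares carry exact Clopper-Pearson 95% intervals. These cover counting error only, and neighbouring peaks are not independent.

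The distal arms as a whole were denser in peaks than the chromosome interior, more than 5 Mb from both ends, in every list. Taken whole, they were also less dense than the outermost 1 Mb in every list. Distal and outermost densities were 10.49 and 11.7 peaks per Mb for HT29, 9.73 and 12.97 for COLO205, 7.85 and 12.1 for HCT116, 4.88 and 9.39 for COLO320DM, and 1.597 and 2.17 for HCT15. The windows make up 5.62% of the chromosome spans. From the highest to the lowest, they held 29.2% of HCT15 peaks (26.1% to 32.5%), 20.5% of HT29 peaks (19.6% to 21.45%), 17.5% of COLO205 peaks (16.7% to 18.4%), 14.8% of HCT116 peaks (14.01% to 15.6%) and 9.76% of COLO320DM peaks (9.08% to 10.5%). No interval overlapped that of another list. That separation was lost among the 787 strongest peaks of each list by −log10 p, where HCT116 and COLO205 both had 11.7% (9.53% to 14.1%) and COLO320DM 9.28% (7.34% to 11.5%). These 787 are the whole HCT15 list on the 18 chromosomes.

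Input-covered peaks were denser in the distal arms than in the interior in the 5 lists. Their density in the distal arms over that of the interior was 2.80 in HCT116 (2.56 to 3.05), 2.75 in COLO205 (2.501 to 3.01), 2.52 in HT29 (2.25 to 2.82), 2.27 in HCT15 (1.28 to 3.78) and 2.22 in COLO320DM (2.02 to 2.44). The HCT15 value rests on 17 peaks. Among peaks with a −log10 q of at least 5 it was 0.719, from 2 distal peaks, too few to place it above or below equal density. The intervals of HCT116 and COLO320DM did not overlap. Under a single input threshold HT29 had 1.88 (1.61 to 2.18) and COLO205 1.75 (1.45 to 2.09), apart from HCT116 at 2.95 (2.68 to 3.25). The ratio of input-poor peaks had a wider range. It was 1.36 in COLO320DM (1.17 to 1.57), 3.48 in HCT116 (3.16 to 3.82), 4.96 in COLO205 (4.59 to 5.36), 6.25 in HT29 (5.83 to 6.69) and 9.93 in HCT15 (8.34 to 11.8). In the interior the 4 long lists had nearly the same density of input-poor peaks, 1.002 per Mb in COLO320DM, 1.06 in HCT116, 1.21 in COLO205 and 1.27 in HT29. In the distal arms these densities were 1.36, 3.69, 5.99 and 7.94 per Mb. Neither gene density nor how uniquely reads can be placed was corrected for, and their part in these ratios was not tested.

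**Figure D1:**
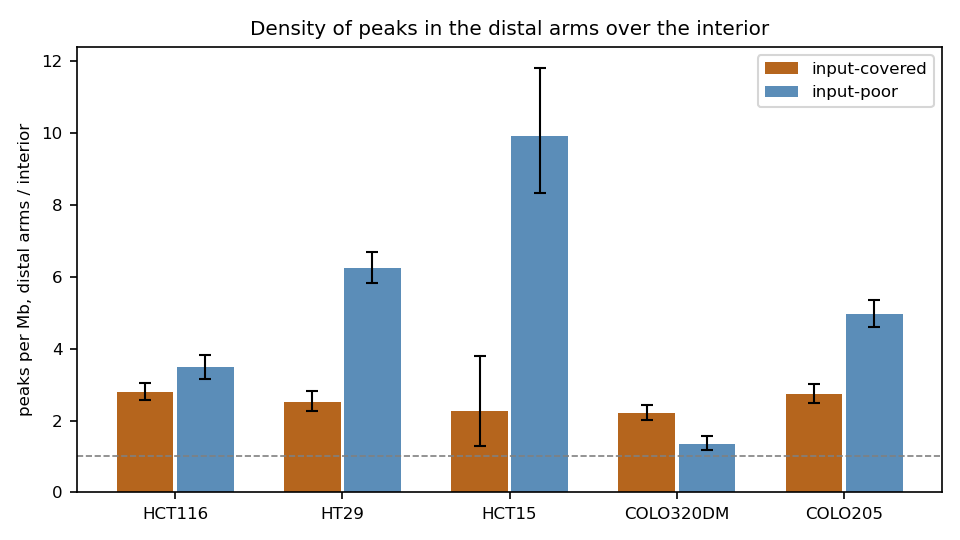
Peaks per Mb in the distal arms divided by peaks per Mb in the interior of the same 18 chromosomes, for input-covered and input-poor peaks of each list. Bars start at 0, error bars are exact 95% intervals and the dashed line marks equal density. Input-covered bars lie between 2.22 and 2.80, input-poor bars between 1.36 in COLO320DM and 9.93 in HCT15.

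Local input around the distal peaks followed the same split. Input covered 599 HCT116 peaks or 52.96%, where 57.5% of that list's peaks on the 18 chromosomes were input-covered. The counts were 366 or 24.2% in HT29, beside 39.2% for its list, and 539 or 38.5% in COLO205, beside 50.2%. In HCT15 they were 17 or 7.39% (4.36% to 11.6%), beside 19.2%, and 2 or 2.44% at a −log10 q of at least 5. COLO320DM went the other way, with 507 or 72.1% (68.7% to 75.4%) beside 62.5%. Distal peaks were thus poorer in input than their list in 4 lists and richer in COLO320DM. The median distal peak had a background of 2.19 input fragments in COLO320DM, 1.00 in HCT116, 0.375 in COLO205, 0.165 in HT29 and 0.074 in HCT15. For 46.1% of distal HCT15 peaks the background was the genome mean, the lowest level the caller uses, as for 21.1% in HT29 and 4.55% in COLO320DM. The order of the lists changed with the settings. With a single input threshold across lists, distal input-covered shares were 61.5% in COLO320DM, 44.6% in HCT116, 12.6% in HT29, 9.35% in COLO205 and 7.39% in HCT15, which puts COLO205 below HT29. Among the 787 strongest peaks, which differ from the full lists in both number and strength, input covered 93.5% of distal peaks in HCT116, 90.4% in COLO320DM, 73.9% in COLO205 and 32.6% in HT29, so that COLO320DM no longer came first.

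Peak density fell inwards across the zone. From 1 to 2 Mb there were 16.1 peaks per Mb in HT29, 14.6 in COLO205, 13.6 in HCT116, 7.25 in COLO320DM and 2.53 in HCT15. From 4 to 5 Mb there were 6.03, 6.06, 4.44, 2.72 and 0.750 in the same order. Each 1 Mb step inwards held fewer peaks than the one before in all 5 lists. Input-poor COLO320DM peaks declined least, from 56 to 54, 48 and 38 over the 4 steps, while those of HT29 went from 429 to 299, 249 and 167. Input-covered HCT116 peaks were the most concentrated near the outer bound, with 296 from 1 to 2 Mb and 122, 93 and 88 farther in. Part of that excess was 1 window on 8q, given with the dense windows.

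**Figure D2:**
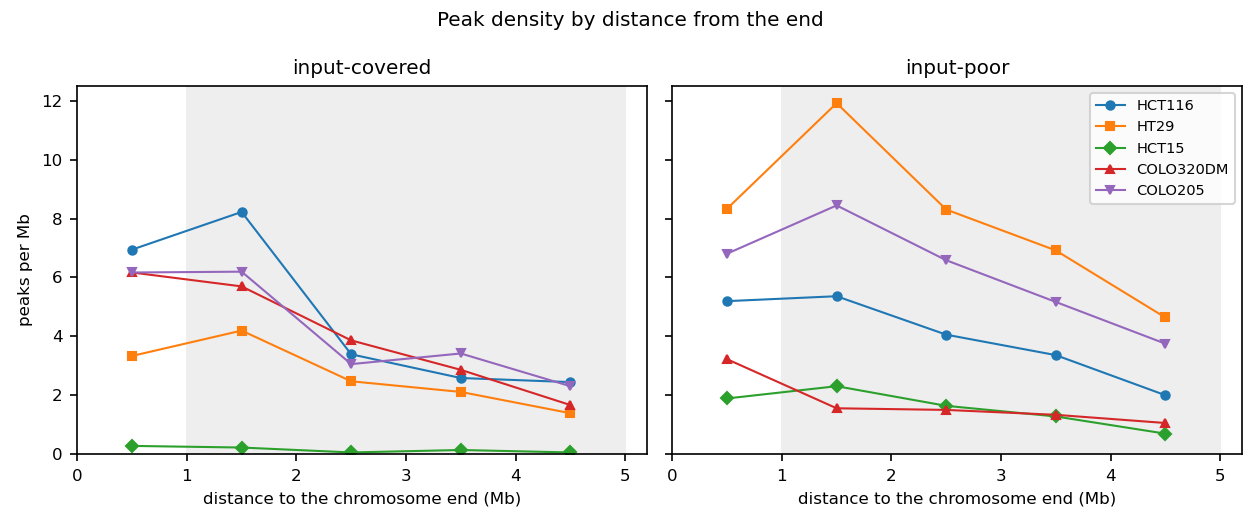
Peaks per Mb against distance to the chromosome end in steps of 1 Mb, for input-covered (left) and input-poor (right) peaks, with 1 line per list. The grey band is the zone of 1 to 5 Mb and the points left of it are the outermost 1 Mb. Input-poor HT29 and COLO205 peaks are the densest across the zone, while those of COLO320DM stay low, with 56 peaks in the outermost step of the zone and 38 in the innermost.

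The long arms held most of the members, from 59.9% in COLO320DM to 74.3% in HCT15, with 4 of the short arms empty. Peaks were uneven over the 32 arms. The 5 fullest arms held 43.95% of COLO320DM members, 42.2% of HCT15, 41.3% of HCT116, 33.25% of HT29 and 31.9% of COLO205. The median arm held 47.5 peaks in HT29, 39 in COLO205, 30 in HCT116, 15 in COLO320DM and 6.5 in HCT15. Over the 32 arms, the rank correlation (Spearman's rho) of peak numbers was 0.947 between HT29 and COLO205, 0.869 between HT29 and HCT15, 0.835 between HCT116 and COLO320DM, 0.517 between HT29 and COLO320DM and 0.364 between HCT15 and COLO320DM. For input-covered peaks alone HT29 and COLO320DM reached 0.768, and for input-poor peaks alone 0.275. These describe arms, which share a library and differ in gene content.

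**Figure D3:**
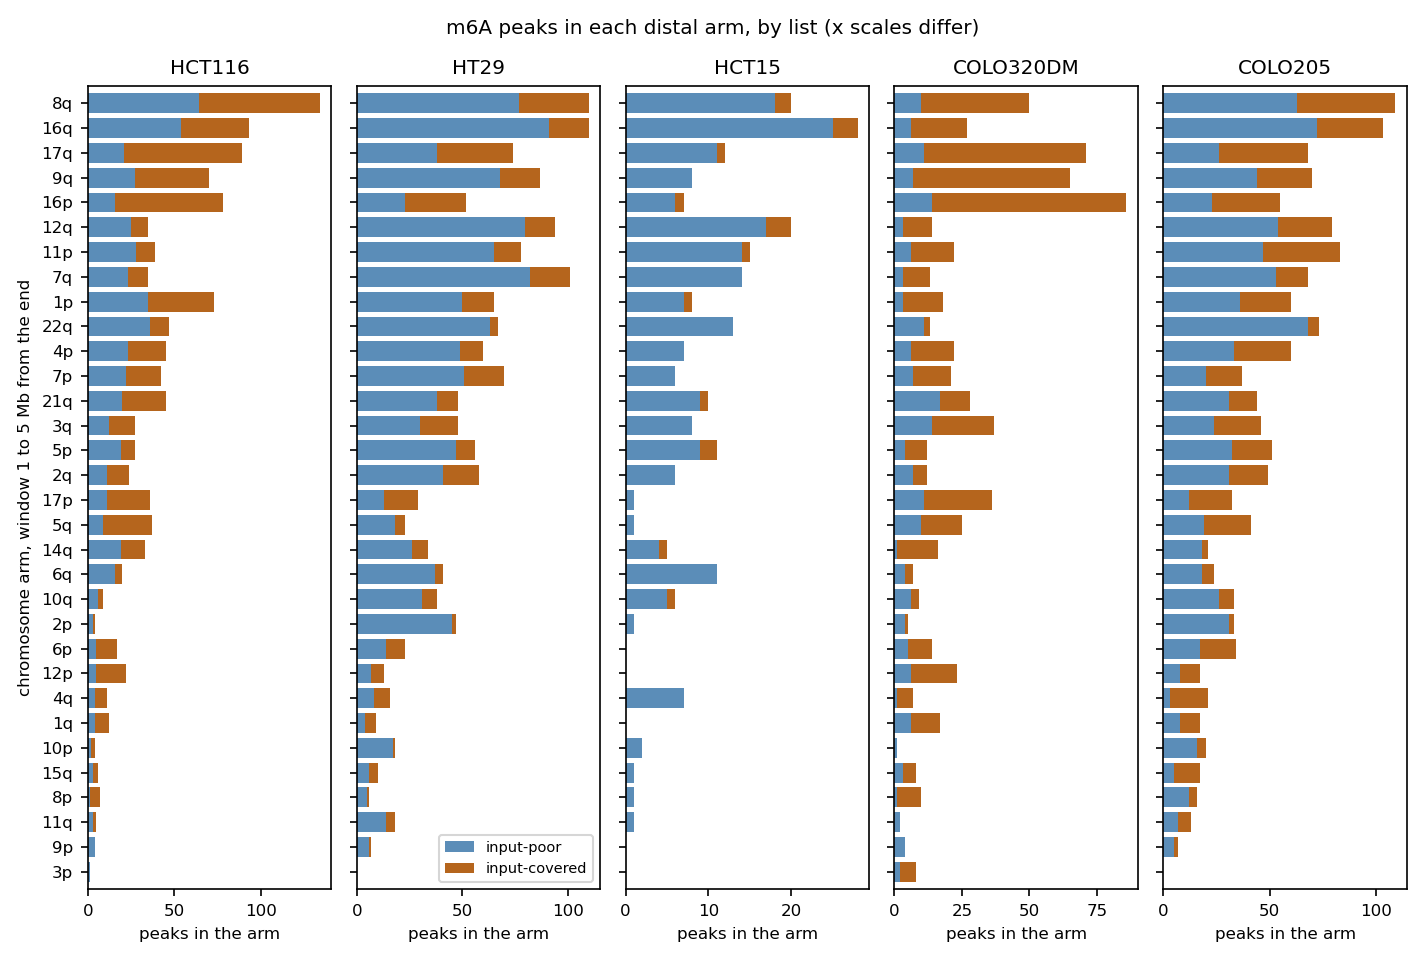
Number of peaks in each of the 32 distal arms, 1 panel per list with its own scale, stacked by input class and ordered by the total over the lists. HCT116, HT29 and COLO205 are fullest on 8q (HT29 has as many on 16q), HCT15 on 16q and COLO320DM on 16p, and COLO320DM bars are mostly input-covered except on arms such as 22q.

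Distal 8q, which carries EPPK1 and PLEC, genes with very long exons that encode linkers of the epithelial cytoskeleton, was the fullest arm overall. HCT116 had 134 peaks there, HT29 110, COLO205 109, COLO320DM 50 and HCT15 20. Input covered 70 of these in HCT116, 46 in COLO205, 40 in COLO320DM, 33 in HT29 and 2 in HCT15. All 20 HCT15 peaks of the arm lay on an HT29 peak and on a COLO205 peak, 17 on an HCT116 peak and none on a COLO320DM peak. Over all distal HCT15 peaks these shares were 93.0%, 80.0%, 51.3% and 0.870%. In HCT116 8q held 11.85% of the members, but 6.52% of the distal peaks among the 787 strongest of that list.

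Distal 16q held 110 peaks in HT29, 103 in COLO205, 93 in HCT116, 28 in HCT15 and 27 in COLO320DM. It was the fullest arm of HCT15, with 12.2% of that list's members, and the eighth of COLO320DM. Of the 28 HCT15 peaks there 26 lay on an HT29 peak, 25 on a COLO205 peak, 17 on an HCT116 peak and none on a COLO320DM peak. These stand beside 93.0%, 80.0%, 51.3% and 0.870% of all distal HCT15 peaks.

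COLO320DM had about as many peaks as the other long lists on some arms, most of them input-covered. Among its fullest arms, distal 16p, which carries TSC2 and PKD1, had 86 peaks in COLO320DM, 78 in HCT116, 55 in COLO205, 52 in HT29 and 7 in HCT15. Distal 17q, which carries FASN, the fatty acid synthase gene, and ACTG1, a gene of cytoplasmic actin, had 71, 89, 68, 74 and 12 in the same order. Distal 9q, which carries NOTCH1, a receptor that steers intestinal cell fate, had 65, 70, 70, 87 and 8. COLO320DM peaks on these arms were input-covered in 83.7%, 84.5% and 89.2% of cases. HT29 peaks were so in 55.8%, 48.65% and 21.8%. Of the COLO320DM peaks, 39 of 86 on 16p, 26 of 71 on 17q and 36 of 65 on 9q were in no other list. Over all distal arms 322 of the 703 COLO320DM peaks were in no other list. On 17p COLO320DM and HCT116 had 36 each, COLO205 32 and HT29 29, and on 12p they had 23, 22, 17 and 13. Distal 3q was the fifth arm of COLO320DM, with 37 peaks while HT29 had 48, COLO205 46, HCT116 27 and HCT15 8. Distal 1p was the fifth of HCT116, with 73 beside 65 in HT29, 60 in COLO205, 18 in COLO320DM and 8 in HCT15.

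On other arms COLO320DM had few peaks. Distal 7q, which carries PTPRN2, a phosphatase-like gene of secretory vesicles, held 101 peaks in HT29, 68 in COLO205, 35 in HCT116, 14 in HCT15 and 13 in COLO320DM. It was the third arm of HT29 and shared the nineteenth place in COLO320DM with 22q. Input covered 10 of the 13 COLO320DM peaks but 19 of 101 in HT29, 15 of 68 in COLO205, 12 of 35 in HCT116 and none of 14 in HCT15, an interval for HCT15 of up to 23.2%. Of the 68 COLO205 peaks, 53 lay on an HT29 peak and 6 on a COLO320DM peak, beside 58.3% and 17.6% of all distal COLO205 peaks.

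Distal 12q held 94 peaks in HT29, 79 in COLO205, 35 in HCT116, 20 in HCT15 and 14 in COLO320DM. HCT15 peaks there lay on an HT29 peak in 19 of 20 cases and on a COLO320DM peak in 1, beside 93.0% and 0.870% over all distal arms. Distal 11p, which carries the secreted mucin genes MUC2, MUC5AC and MUC5B, held 83 in COLO205, 78 in HT29, 39 in HCT116, 22 in COLO320DM and 15 in HCT15. Of the COLO320DM and COLO205 peaks there 16 of 22 and 35 of 83 were in no other list, beside 322 of 703 and 398 of 1401 over all distal arms.

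Distal 10q, which carries the DNA repair gene MGMT, was sparse. It held 38 peaks in HT29, 33 in COLO205, 9 in HCT116, 9 in COLO320DM and 6 in HCT15. HT29 and COLO205 stood above the other lists, with 7 input-covered peaks each against 3 each in HCT116 and COLO320DM. Of the 38 HT29 peaks 19 lay on a COLO205 peak, beside 51.5% of all distal HT29 peaks.

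Distal 22q and 2p held few input-covered peaks. On 22q, input covered 5 of 73 peaks in COLO205, 4 of 67 in HT29, 11 of 47 in HCT116, 2 of 13 in COLO320DM and none of 13 in HCT15. Of the 13 COLO320DM peaks there, 4 met an HCT116 peak and none met an HT29, HCT15 or COLO205 peak. Over all distal COLO320DM peaks these shares were 44.8%, 25.6%, 0.2845% and 34.99% in turn. Of the 67 HT29 peaks on 22q, 40 lay on a COLO205 peak, beside 51.5% of all distal HT29 peaks. On 2p, which carries the neural gene MYT1L, HT29 had 47 peaks and COLO205 33, against 4 in HCT116, 5 in COLO320DM and 1 in HCT15, and input covered at most 2 in any list. None of the 5 COLO320DM peaks was in another list, while 54.2% of all distal COLO320DM peaks were.

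Sparse arms had the reverse order at times. Distal 3p held 8 COLO320DM peaks and 1 HCT116 peak, none of them shared, and no peak of the other lists. HCT15 had no peak on 1q, 3p, 6p, 9p and 12p, and 3p was the one arm without a peak in HT29 or COLO205. Over the 32 arms HT29 had more input-poor peaks than COLO320DM on 30 and fewer on 2, but more input-covered peaks on 13 and fewer on 17. HT29 likewise had more input-poor peaks than HCT116 on 30 arms and fewer on 1. On the 21 arms with at least 10 peaks in each long list, the input-covered share was lowest in HT29 on 20 and in COLO205 on 1. It was highest in COLO320DM on 14 arms and in HCT116 on 6, with 1 tie.

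Most distal peaks of each list met a peak of another list. Of the distal peaks, 768 in HCT116 (67.9%, 65.1% to 70.6%) met a peak of at least 1 other list, beside 62.1% of that list on the 18 chromosomes. The counts were 916 in HT29 (60.7%, beside 64.2%), 223 in HCT15 (96.96%, beside 94.4%), 381 in COLO320DM (54.2%, beside 52.4%) and 1003 in COLO205 (71.6%, beside 66.9%). The distal shares of all peaks together were thus near those of the lists. By input class, input-covered HCT116 and HT29 peaks were shared less often than interior ones, and input-poor ones more often. Input-poor COLO205 peaks were also shared more often than interior ones. The values are given with the classes below. The distal shares also moved with the peaks and the overlap rule used. Cutting each list to its 787 strongest peaks kept all HCT15 peaks and shortened the other lists. Then 38.7% of distal HCT15 peaks met another list. With a reciprocal overlap of 50%, 53.5% of HCT15, 44.2% of HCT116, 42.9% of COLO205 and 31.9% of HT29 peaks did.

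COLO320DM was the partner met less often in the distal arms than in the interior by all 4 other lists. It held 27.3% of distal HCT116 peaks (24.7% to 30.02%) against 41.2% of interior ones (40.0% to 42.5%). For HT29 peaks these were 12.05% (10.45% to 13.8%) against 31.2% (29.96% to 32.4%), and for COLO205 peaks 17.6% (15.6% to 19.65%) against 33.75% (32.6% to 34.95%). In HCT15, 2 of 230 distal peaks (0.870%, 0.105% to 3.11%) lay on a COLO320DM peak, against 30 of 479 interior ones (6.26%, 4.26% to 8.82%). Seen from COLO320DM itself the shares were closer, with 44.8% of distal and 41.1% of interior peaks in HCT116 and 25.6% and 27.4% in HT29.

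HT29 and HCT15 were each met more often in the distal arms than in the interior by HCT116, by COLO205 and by one another. By input class the rise was uneven. Of HCT116 peaks, 31.9% of distal and 43.4% of interior input-covered ones lay on an HT29 peak, and 62.4% and 24.8% of input-poor ones. Input-covered HCT116 peaks met HCT15 in 1.34% and 1.61%, and input-covered COLO205 peaks met HT29 in 53.6% and 53.5%. Input-covered HT29 and COLO205 peaks met HCT15 more often distally, in 13.7% against 6.95% and 12.1% against 6.59%. HT29 held 46.2% of distal HCT116 peaks (43.3% to 49.2%) against 35.7% of interior ones, and 58.3% of distal COLO205 peaks (55.7% to 60.9%) against 47.4%. HCT15 held 10.3% of distal HCT116 peaks (8.63% to 12.3%) against 2.96%, 12.3% of HT29 peaks (10.7% to 14.1%) against 6.94%, and 12.8% of COLO205 peaks (11.1% to 14.6%) against 6.11%. HCT15 peaks lay on an HT29 peak in 93.0% of distal cases (88.9% to 95.97%) and 82.5% of interior ones (78.8% to 85.8%), and on an HCT116 peak in 51.3% and 37.8%. HT29 peaks themselves lay on an HCT116 peak in 32.5% of distal cases against 39.8%, and on a COLO205 peak in 51.5% against 52.75%.

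The shares for single pairs changed with the settings, and for these settings the interior was not computed. Among the 787 strongest peaks of each list, 22.8% of distal HCT116 peaks lay on an HT29 peak and 35.9% on a COLO320DM peak, which turns their order. HCT15 peaks, all of which were kept, then lay on an HT29 peak in 34.8% of cases, on a COLO205 peak in 11.7% and on an HCT116 peak in 1.74%. HT29 held 34.8% of the COLO205 peaks. COLO320DM held 30.4% of them, up from 17.6%. HCT15 held 42.2% of the HT29 peaks and 3.26% of the HCT116 peaks. With a reciprocal overlap of 50%, HT29 held 19.01% and COLO320DM 21.04% of HCT116 peaks. HT29 then held 23.9% of HCT15 peaks, fewer than COLO205 with 35.2%, and 26.3% of COLO205 peaks.

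**Figure D4:**
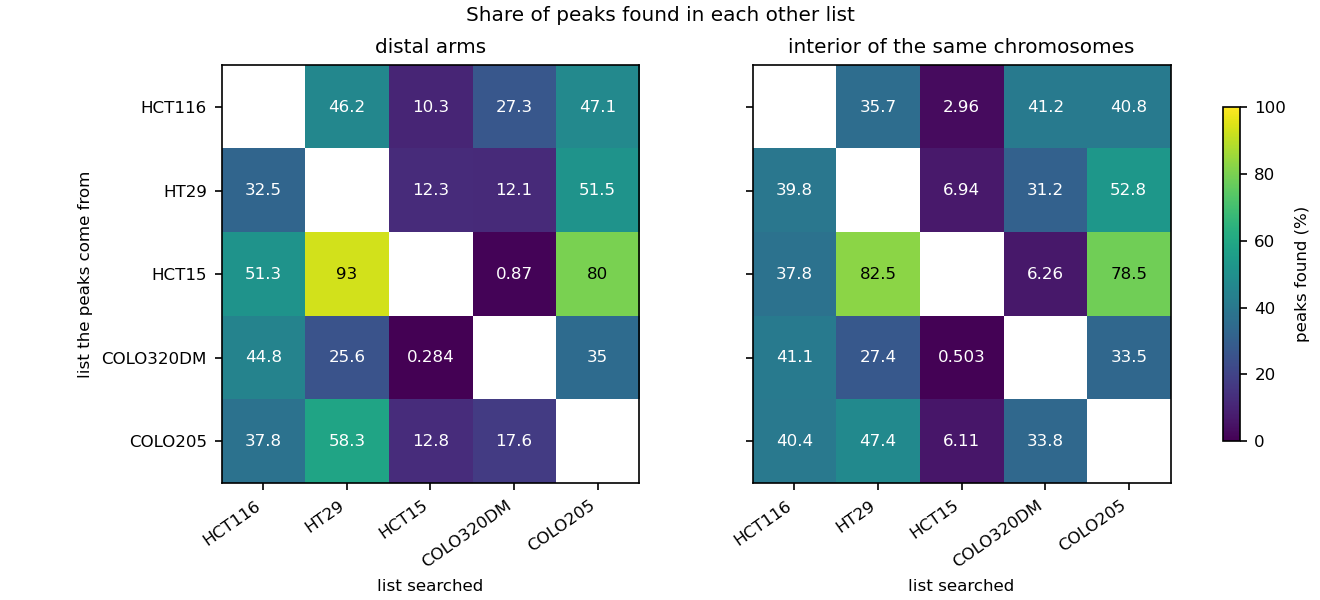
Share of the peaks of one list (rows) that overlap a peak of another list (columns) by at least 1 nt, in percent, for the distal arms (left) and the interior (right). The COLO320DM column is darker on the left, with 27.3%, 12.05%, 0.870% and 17.6%, than on the right, with 41.2%, 31.2%, 6.26% and 33.75%.

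Within the distal arms, sharing differed between input-covered and input-poor peaks, and not alike in all lists. Of HCT116 peaks on the arms, 47.6% of the input-covered ones (43.5% to 51.7%) lay on a COLO320DM peak and 4.51% of the input-poor ones (2.91% to 6.64%). On an HT29 peak lay 31.9% of the input-covered ones (28.2% to 35.8%) and 62.4% of the input-poor ones (58.1% to 66.5%). HT29 peaks showed no such switch. Input-covered ones met each other long list more often than input-poor ones, with 62.3% against 22.99% on an HCT116 peak, 68.6% against 45.98% on a COLO205 peak and 42.6% against 2.27% on a COLO320DM peak. COLO320DM peaks did likewise, with 32.35% against 8.16% on an HT29 peak. In HT29 81.7% of input-covered peaks (77.3% to 85.5%) and 53.9% of input-poor ones (50.99% to 56.85%) met any other list. In the interior these were 87.5% and 47.7%. Input-covered HCT116 peaks were shared in 64.3% of distal cases (60.3% to 68.1%) and 74.7% of interior ones. For input-covered peaks of COLO205 these were 77.0% and 76.8%, and of COLO320DM 65.1% and 68.4%. Input-poor HCT116 peaks were shared in 72.0% of distal cases (67.97% to 75.8%) and 41.9% of interior cases (39.9% to 43.8%). Input-poor COLO205 peaks were shared in 68.2% (64.99% to 71.3%) and 53.6%. Input-poor COLO320DM peaks were shared in 26.02% (20.03% to 32.75%) and 25.85%, a difference within the interval. Input-poor peaks rest on few reads, with distal medians of 4 in HCT116 and COLO320DM, 5 in COLO205, 6 in HT29 and 16 unscaled reads in HCT15.

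Merging overlapping distal peaks gave 2787 regions. Most, 1684, came from a single list, 570 from 2 lists, 302 from 3 and 231 from 4, and none was common to all 5. Interior peaks were not merged, so no share stands beside these. By single peaks, none in the distal arms met all 4 other lists. With a count of 0, the upper limit of the distal share was 0.199% in HT29, 0.427% in COLO320DM and 1.30% in HCT15. In the interior, 16 of 2402 input-covered and 0 of 3029 input-poor HT29 peaks did. The counts were 16 of 3249 and 0 of 2875 in COLO205, and 10 of 3545 and 3 of 2532 in HCT116. In COLO320DM they were 8 of 3777 and 6 of 2387, and in HCT15 10 of 124 and 4 of 355. The input class of regions in 4 lists differed with the set of lists. A region is called mostly input-covered when more of its own peaks are input-covered than input-poor. Input covered 7.39% of distal HCT15 peaks and 72.1% of distal COLO320DM peaks. Which of these lists is in a set thus partly sets the class beforehand. Of the 130 in HCT116, HT29, COLO320DM and COLO205, 118 were mostly input-covered. Of the 99 in HCT116, HT29, HCT15 and COLO205, 3 were. Smaller sets varied, from 0% of 11 regions in HT29 and HCT15 to 93.2% of 59 in HCT116, COLO320DM and COLO205. Of 274 regions in HT29 and COLO205 alone 6.57% were mostly input-covered, of 144 in HCT116, HT29 and COLO205 16.7%, and of 94 in HCT116 and COLO320DM 76.6%. Other pairs varied, with 17.4% for HCT116 and HT29, 53.5% for HCT116 and COLO205 and 52.9% for COLO320DM and COLO205. HT29 and COLO320DM had 57.1%, and HCT15 with HT29 or with COLO205 had 0%. The 17q, 16q and 9q arms held 21, 21 and 20 regions in 4 lists and 8q held 22, while 2p, 9p, 10p, 11q and 3p held none.

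**Figure D5:**
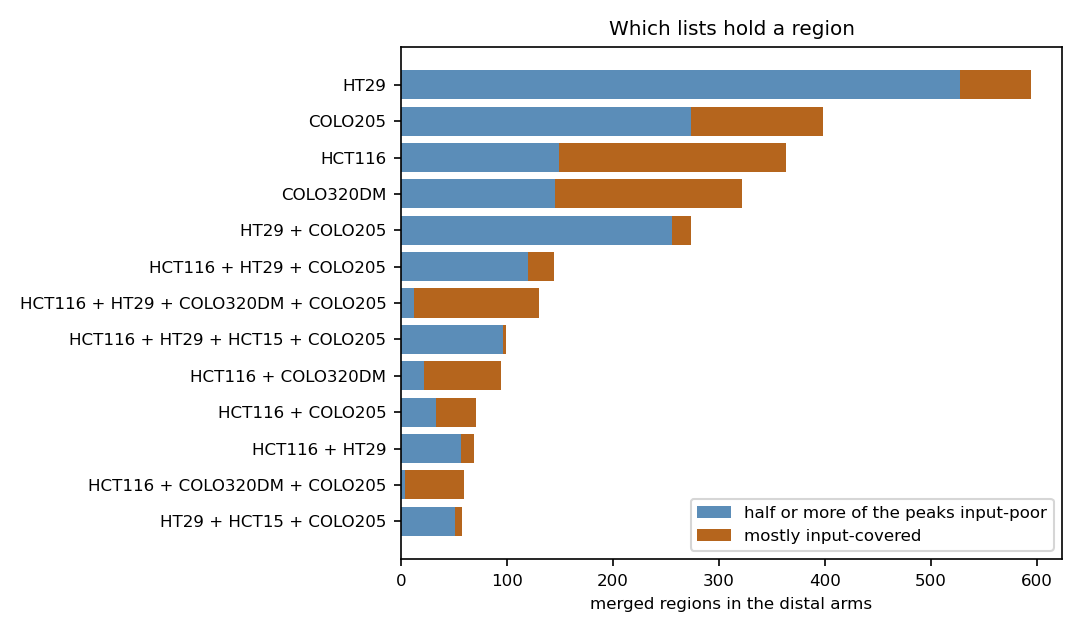
The 13 most frequent sets of lists that hold a merged distal region, with the number of regions and their input class. Of the 130 regions in the 4 long lists 118 are mostly input-covered, and of the 99 regions in HCT116, HT29, HCT15 and COLO205 3 are.

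The region in the 4 long lists with the highest minimum rank of fold was on 14q, from 102675908 to 102676166. There HCT116 had a fold of 17.7, COLO205 16.3, HT29 15.4 and COLO320DM 13.4, over 20 to 25 reads. Next came a region on 5q, from 176562555 to 176562920, with folds of 14.4, 13.6, 10.4 and 11.5 for these lists in turn. A neighbour on 5q, from 176638791 to 176639002, was also in this top 10, with 14.1, 15.85, 10.04 and 12.2, and was input-covered in 4 lists. The arm carries NSD1, a histone methyltransferase gene with a long internal exon. The third region, on 3q from 196198801 to 196199203, had a fold of 25.5 in COLO205, 11.45 in HT29, 10.65 in COLO320DM and 8.58 in HCT116. COLO205 stood above the others there and had 0.6 input fragments, against 3 to 6 in the other lists. At 2q, from 239237578 to 239237968, COLO320DM stood out instead, with a fold of 24.4 over 2 input fragments, against 11.9, 8.58 and 9.97 over 6, 5 and 4 fragments in HCT116, HT29 and COLO205. COLO320DM and HCT116 had the same 55 reads there, so a higher fold did not mean more reads. The other regions of the top 10 lay on 9q, 7p, 6p, 3q and 21q, with folds from 7.62 to 15.2.

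No region of 7q, 8q or 10q was in more than 4 lists, and 9, 22 and 4 regions of these arms were in 4. Of each, the region with the highest minimum percentile of fold is given. On 7q it was at 156743145 to 156743400, input-covered in the 4 long lists with folds of 14.7 in COLO205, 13.1 in HT29, 7.10 in COLO320DM and 6.77 in HCT116. Read numbers ran the other way, with 30, 39, 52 and 60. On 8q it was at 143336627 to 143337683, a region of 1057 nt without COLO320DM, with folds of 7.45 in HCT116, 7.17 in HT29, 11.4 in HCT15 and 8.38 in COLO205. On 10q it was at 134177825 to 134178059, also without COLO320DM. There HT29 had a fold of 18.99 over 31 reads, HCT15 18.3 over 58 unscaled reads, COLO205 16.6 over 19 and HCT116 5.78 over 5. This was also the strongest distal peak of HCT15 by fold and by −log10 p.

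Positions on 17q and 11p were among the strongest peaks of both HT29 and HCT15. The highest distal fold of HT29 was 34.4, on 17q from 79398487 to 79399867, a peak of 1381 nt. It met HCT15, HCT116 and COLO205 peaks with folds of 12.05, 13.6 and 15.7, and no COLO320DM peak. On 11p, from 1092539 to 1093631, HT29 had a fold of 14.3 over 72 reads, and HCT15, HCT116 and COLO205 had 13.9, 13.6 and 16.2, with folds closer together than at 17q. HT29 also led on 4q, from 186748741 to 186748948, with 25.5 against 8.04 in HCT15 and 4.89 in COLO205. On 5p, from 3445885 to 3447051, it had 20.9 against 7.71 in HCT116, 7.09 in COLO205 and 5.42 in HCT15. None of these 4 positions had a COLO320DM peak.

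HCT116 had its highest distal fold, 18.98 over 32 reads, on 16p from 1252097 to 1252501, where no other list had a peak. Another of its top 3, 16.1, was on 7q from 157944080 to 157944217, met by HT29 at 10.4 and COLO205 at 4.25. The second of COLO320DM, 14.6, was on 9q from 138800559 to 138800952, met by COLO205 at 5.83. The next, 13.5, was on 1q from 247496497 to 247496673, with 8.16 in COLO205 and 7.198 in HT29. The second of COLO205, 22.05, was on 9q from 139440310 to 139440486, where HCT116 had 7.03 with the same 32 reads. The next, 20.4, was on 6p from 1612294 to 1612583, where HCT116 and HT29 had 9.26 and 9.21.

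Some 100 kb windows were dense in 1 or 2 lists. On 8q, from 144900001 to 145000000, HCT116 had 28 peaks, COLO320DM 15, COLO205 9, HT29 4 and HCT15 none. Nearly all, 55 of 56, were input-covered, with a median of 18.2 input fragments in HCT116 and 12 in COLO320DM, and median folds were low, from 3.12 to 3.85. The window alone held 15 of the 50 COLO320DM peaks of the arm. On 16p, from 2600001 to 2700000, COLO320DM had 20 peaks, 17 of them input-covered, against 4 to 6 in the other long lists and none in HCT15. On 17q, from 79400001 to 79500000, HCT116 and COLO320DM had 12 each, HT29 5, HCT15 4 and COLO205 1. On 1p, from 1300001 to 1400000, HCT116 had 12, COLO205 6, HT29 5, COLO320DM 3 and HCT15 none.

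On 11p, from 1200001 to 1300000, COLO205 had 22 peaks, HT29 5, COLO320DM 1 and HCT116 and HCT15 none. Input covered 19 of the COLO205 peaks, whose folds ran from 3.43 to 12.03 with a median of 6.86 over a median of 11.5 reads. This was the fullest window of COLO205, and it held 26.5% of that list's peaks on the arm. In HT29, 1 of the 5 peaks was input-covered, with 50 input fragments and 79 reads.

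The fullest HT29 windows were mostly input-poor and held no COLO320DM peak. On 7q, from 157800001 to 157900000, HT29 had 14 peaks, COLO205 12, HCT116 4, HCT15 1 and COLO320DM none. Of these 31 peaks 1 was input-covered, in COLO205. In the next window of 7q, from 157900001 to 158000000, HT29 had 15, COLO205 9, HCT116 7 and HCT15 2, and 12 of the 33 peaks were input-covered. On 12q, HT29 had 13 and 12, COLO205 9 and 11, HCT116 4 and 4, HCT15 4 and 4, and COLO320DM none in the windows from 132100001 to 132200000 and from 131800001 to 131900000. The fullest HCT15 windows held 5 or 6 of its peaks each. They were on 16p from 1000001 to 1100000, with 6 of the 7 HCT15 peaks of that arm, on 8q from 143300001 to 143400000 and on 3q from 195500001 to 195600000, an arm that carries the mucin gene MUC4. COLO320DM had 1, 2 and 3 peaks in those windows and HT29 8, 9 and 9. On 10q the fullest window, from 134200001 to 134300000, held 5 peaks in HT29, 5 in COLO205, 4 in HCT116, 1 in COLO320DM and none in HCT15.

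Median peak widths were larger in the distal arms than in the interior in all 5 lists, and neighbours of the same list stood within 1 kb more often. HT29 peaks had a distal median of 148 and an interior one of 124 nt, COLO205 peaks 135 and 121, HCT15 peaks 135 and 119, HCT116 peaks 127 and 115, and COLO320DM peaks 120 and 113. Input-poor peaks alone had medians of 145 against 115 nt in HT29 and 129 against 105 nt in COLO205, but 80 against 81 nt in COLO320DM. A neighbour of the same list stood within 1 kb of 52.9% of distal HT29 peaks and 35.98% of interior ones, and of 30.6% and 26.2% in COLO320DM. Overlapping peaks of COLO320DM and COLO205 had summits a median of 13 nt apart, those of HCT116 and COLO320DM 16 nt, and those of HT29 and COLO205 48 nt. Summits of HCT116 and HT29 lay 56 nt apart, so the pairs with COLO320DM were the closest of these.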

How the data were processed

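Per the submitters' processing notes, the tools were MACS2, BWA, cutadapt and FastQC and the build hg19. Versions, order and parameters are not given in the sources used here. The authors' deposited peak lists, 1 per IP library, give each peak a fold (a ratio of summit to local background), a −log10 p, a −log10 q and a score, which held the −log10 q times 10 without decimals in 99.99% to 100% of peaks. Positions are printed counting from 1.

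Reads and background were recovered from fold and −log10 p under the MACS2 model, in which 1 is added to both reads and background before they are divided, and p is a Poisson probability. In all 5 lists 100% of peaks met their −log10 p within 0.001. With a pseudocount of 0, 0.120% to 0.981% did. Depths assume a genome of 2.7 Gb, and the control is taken to be the line's input. Recovery and overlap code were checked on simulated data and against bedtools 2.31.1.

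Samples were grouped by line from their labels. The 5 inputs entered only through the peak lists. Peaks counted as shared when overlapping by at least 1 nt. Described against each other were lists, arms and zones, with no test between lines. Alternatives tried were a minimum −log10 q of 5, a minimum fold of 4, moved or split zones, equally long lists, other overlap rules, merged regions, 1 input threshold, the fullest arm left out and each list left out. Named were the 3 peaks with the highest fold and the 2 with the highest −log10 p of each list, 10 regions of the 4 long lists, ranked by their lowest percentile of fold, the 5 fullest arms of each list, arms empty in a list, and dense 100 kb windows. The arms 7q, 8q and 10q were named with the choice of zone. Arms 2p, 10p, 11q and 17p were named after their values were seen. Members and lists were chosen with earlier results of these data known. No sequence of hg19 was at hand, and none is printed. Scripts ran in Python 3.11.15 with scipy 1.17.1, numpy 2.4.6, matplotlib 3.10.9 and pandas 2.3.3.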

Additional observations from a re-analysis of the deposited data

How the results depend on the processing

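No paired analysis was possible because each line has 1 IP library and no test was made. A pseudocount of 0 gave no value, since at most 0.981% of peaks could be recovered with it. Of the main values under the alternatives, 155 moved by less than their counting interval (counts by less than 1.5 times) and 94 by more, as follows. The cause was not tested. The density ratios by input class, the reported ones included, were chosen after seeing the data.

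At a −log10 q of at least 5, shares of the list were 13.6% (HCT116), 25.95% (HCT15) and 16.15% (COLO205). Input-covered shares were 68.4% (HCT116), 2.44% (HCT15), 79.3% (COLO320DM) and 42.4% (COLO205), and shares in another list 54.1% (HT29), 59.1% (COLO320DM) and 66.4% (COLO205). HCT116 had 14.3% on 8q. Regions in 1, at least 3 and at least 4 lists numbered 1018, 257 and 103. Input-covered density ratios were 0.719 (HCT15, from 2 distal peaks) and 2.46 (COLO205). At a fold of at least 4, input covered 63.7% (HCT116) and 76.0% (COLO320DM), and 56.55% (HT29) and 67.9% (COLO205) were in another list.

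With 1 input threshold, input covered 44.6% (HCT116), 12.6% (HT29), 61.45% (COLO320DM) and 9.35% (COLO205). Density ratios were 1.88 and 5.81 (HT29) and 1.75 and 4.30 (COLO205) for input-covered and input-poor peaks.

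Among the 787 strongest peaks, shares of the list were 11.7% (HCT116 and COLO205) and 17.15% (HT29). Input-covered shares were 93.5% (HCT116), 32.6% (HT29), 90.4% (COLO320DM) and 73.9% (COLO205), and shares in another list 55.4% (HCT116), 38.7% (HCT15) and 60.3% (COLO320DM). HCT116 had 6.52% on 8q. Regions in 1, at least 3 and at least 4 lists numbered 287, 37 and 13.

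With a reciprocal overlap of 50%, 44.2% (HCT116), 31.85% (HT29), 53.5% (HCT15), 44.1% (COLO320DM) and 42.9% (COLO205) were in another list, and regions numbered 2960, 305 and 132. With summits within 100 nt the shares were 57.4% (HCT116), 48.8% (HT29), 85.65% (HCT15) and 58.96% (COLO205), with 152 regions in at least 4 lists. Regions in at least 4 lists numbered 0 without COLO205, 1 without HCT116, 1 without HT29, 99 without COLO320DM and 130 without HCT15. Those in at least 3 lists numbered 257 without COLO205, 300 without HCT116 and 284 without HT29.

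Without the fullest arm, shares of the list were 13.3% (HCT116), 19.3% (HT29), 8.67% (COLO320DM) and 16.4% (COLO205). Density ratios were 2.54 and 3.15 (HCT116, input-covered and input-poor) and 1.96 (COLO320DM, input-covered). For 1.1 to 5.1 Mb the HT29 share was 19.5%. For 1 to 3 Mb, shares were 9.90%, 13.15%, 19.3%, 6.30% and 10.9% (HCT116, HT29, HCT15, COLO320DM and COLO205), with 14.1% of HCT116 on 8q, 75.8% of COLO320DM input-covered, and 1066, 353 and 151 regions. For 3 to 5 Mb, shares were 4.89%, 7.36%, 9.91%, 3.46% and 6.59%, with 7.22% of HCT116 on 8q, 8.86% of HT29 on 16q, 48.4% of HCT116 and 65.5% of COLO320DM input-covered, 50.2% of COLO320DM in another list, and 618, 180 and 80 regions.

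Input-poor peaks rest on medians of 4 to 6 reads in the 4 long lists, which limits their precision.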
